A study of Mus musculus with 18 samples.

Results

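The genes of the insulin-like growth factor (IGF) system described here are the ligand Igf1, the receptors Igf1r and Igf2r, and the binding protein genes Igfbp2, Igfbp3, Igfbp4, Igfbp5, Igfbp6 and Igfbp7. They were taken by their symbols, by a rule that holds no measured value, though with earlier results of these data known, and make up 9 of the 23420 genes of the RNA-seq table. The samples came from female C57BL/6J mice aged 2 months (young, 2 m), 20 months (aged, 20 m) and 28 months (superaged, 28 m), with no treatment or transgene in any group. RNA-seq of hindlimb muscle was made from 3 mice per age, 1 library each, and fragments of methylated DNA, pulled down by a domain that binds methylated CpGs, were sequenced (MBD-seq) for the same muscles and for spleen T cells, each as 1 pool of 3 mice per age. A difference between ages in these bulk samples cannot tell fewer cells of a type from less RNA per cell, and the mouse is the replicate in all tests below.

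IGF-1 is a growth factor that circulates from the liver and is also made locally in muscle, where it acts on fibres and on their stem cells. It signals through the tyrosine kinase receptor IGF1R to the PI3K, Akt and mTOR pathway, which favours protein synthesis and restrains FoxO transcription factors. IGF2R, the cation-independent mannose 6-phosphate receptor, takes up IGF-2 and lysosomal enzymes and carries them to lysosomes. The binding proteins hold IGFs outside the cell, lengthen their life or keep them from the receptor, and are cut by dedicated proteases. IGFBP7 binds IGFs only weakly.

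The DNA before 4 of the start sites is shown to set 2 starts rich in CpGs and 2 with about the usual number beside their MBD-seq level, given at the end. Each line gives the 250 bases before the RefSeq start site (GRCm38.p6), read 5′ to 3′ on the strand of the gene, with every CpG in capitals. The windows are chr7:67952007-67952256 on the plus strand for Igf1r, chr17:12769707-12769956 on the minus strand for Igf2r, chr1:72874866-72875115 on the minus strand for Igfbp5 and chr15:102143936-102144185 on the plus strand for Igfbp6. None of the 4 windows holds an annotated exon of its own gene.
Igf1r: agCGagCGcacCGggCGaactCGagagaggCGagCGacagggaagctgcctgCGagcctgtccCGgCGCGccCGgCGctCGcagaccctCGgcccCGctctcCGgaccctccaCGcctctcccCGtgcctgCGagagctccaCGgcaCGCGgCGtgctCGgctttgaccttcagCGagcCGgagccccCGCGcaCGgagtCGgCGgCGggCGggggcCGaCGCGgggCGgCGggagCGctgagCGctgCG
Igf2r: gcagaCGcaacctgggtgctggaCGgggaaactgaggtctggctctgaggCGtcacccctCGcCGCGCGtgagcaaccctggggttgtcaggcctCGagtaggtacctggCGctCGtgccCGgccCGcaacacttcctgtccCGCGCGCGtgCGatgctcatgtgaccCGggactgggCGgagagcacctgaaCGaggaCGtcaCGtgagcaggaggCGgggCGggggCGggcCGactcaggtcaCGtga
Igfbp5: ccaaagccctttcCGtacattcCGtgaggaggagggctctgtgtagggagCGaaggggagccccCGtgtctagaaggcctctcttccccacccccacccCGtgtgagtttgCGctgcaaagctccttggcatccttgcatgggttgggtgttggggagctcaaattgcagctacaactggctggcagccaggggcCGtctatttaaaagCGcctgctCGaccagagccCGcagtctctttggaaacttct
Igfbp6: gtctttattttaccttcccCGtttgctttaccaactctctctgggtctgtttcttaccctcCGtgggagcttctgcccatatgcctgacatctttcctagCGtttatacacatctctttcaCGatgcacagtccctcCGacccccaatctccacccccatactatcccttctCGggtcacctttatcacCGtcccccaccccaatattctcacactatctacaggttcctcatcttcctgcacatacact

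The Igf1r window holds 42 CpGs and the Igf2r window 27, whereas those of Igfbp5 and Igfbp6 hold 10 and 7. Over the start-site windows of 16375 genes the median was 10 CpGs, with quartiles of 3 and 19, and 93.1% of windows held at least 1 CpG. Among the other members, Igfbp3 has 32 CpGs, Igfbp7 has 26, Igfbp4 has 22, Igfbp2 has 14 and Igf1 has 5. All 250 bases of the Igfbp3 and Igfbp4 windows and 150 of the Igf1 window lie in annotated exons of their own genes. The starts used for these genes, such as 87861111 for Igf1, therefore lie inside the span of the gene. A CpG count describes the sequence and not its methylation.

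The 9 RNA-seq libraries held between 20203833 and 71115244 reads on genes. The values are normalized counts, that is, reads per gene divided by 1 size factor per library. The tissue label matched its markers, since the summed level of 10 muscle fibre genes, most of them of fast fibres, was 5256240 to 7019310 in every library and none of them was at 0. The 3 libraries numbered 3 differed from the other 6 in the share of reads that did not align (2.36 to 2.501% against 4.39 to 5.39%) and in the share held by the 10 most abundant genes (29.6 to 32.5% against 43.1 to 48.4%). The library labelled 2m-1 also held marrow genes at a summed level of 4487 and bone and cartilage genes at 1917, against at most 69.2 and 121 in the other 8. The 6 slow fibre genes were all higher in aged muscle, with summed levels of 8247 to 92906 at 2 m, 120539 to 213993 at 20 m and 157243 to 194236 at 28 m.

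The ligand gene and several binding protein genes were lower in aged muscle, and Igf2r was higher. At 20 m against 2 m, 5 of the 8 members that passed the filter (a mean normalized count of at least 10) differed with an adjusted p under 0.05 (limma, Benjamini-Hochberg over 13178 genes): Igf2r was higher and Igf1, Igfbp5, Igfbp6 and Igfbp7 were lower. In the same comparison 16.6% of all genes tested passed, 9.42% higher and 7.13% lower. At 28 m against 2 m, Igf2r was higher and Igf1, Igfbp6 and Igfbp7 were lower, 4 of 8 members beside a background of 13.8% (7.53% higher, 6.24% lower). The libraries of the ages did not overlap for 6 of 8 members at 20 m and for 4 of 8 at 28 m, as they did not for 36.0% and 30.3% of all genes tested. The median log2 fold change of the 8 members was -0.38 at 20 m and -0.28 at 28 m, against -0.02 and -0.01 over all genes tested. Both comparisons use the same 3 libraries of 2-m muscle. After rescaling each library to the same sum, Igf1 and Igfbp6 were the 2 members still called at each age, and 586 and 554 genes were called in place of 2181 and 1814. When 28 m was compared with 20 m, 0 of 8 members passed by limma (0.379% of all genes did), and 3 members had an unadjusted p under 0.05, as did 10.6% of all genes. DESeq2 on the recovered reads of the same genes also called 0 members there, beside 1.77% of all genes with an adjusted p, and edgeR called 0. Igfbp2 did not pass the filter and is described from a fit without it.

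**Figure D1:**
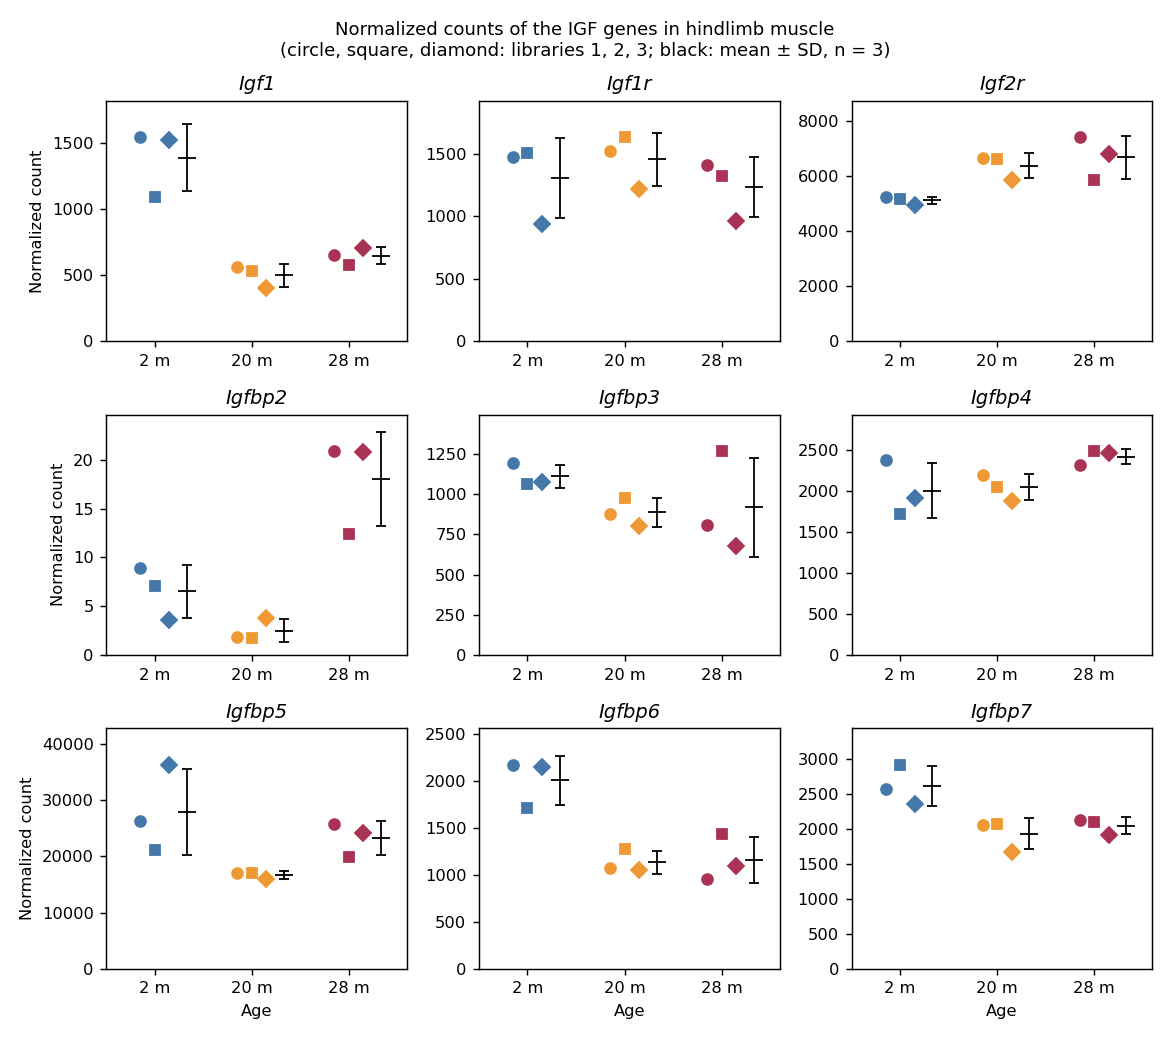
Normalized counts (linear axes from 0) of the 9 IGF genes in the 9 muscle libraries, in 1 panel per gene, with age on the x axis. Circles, squares and diamonds are libraries 1, 2 and 3 of each age, and black marks give the mean ± SD (n = 3). For Igf1, every library of 20 m and 28 m lies at or under 708, under the lowest 2-m library at 1094.

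Igf1, the ligand gene (chr10:87858265-87937047, plus strand, GRCm38), had normalized counts of 1542, 1094 and 1526 in the 3 libraries of 2-m muscle, 559, 531 and 402 at 20 m, and 651, 579 and 708 at 28 m. All 6 libraries of aged muscle lay below all 3 young ones. Mean levels were 1388 ± 254 at 2 m, 497 ± 83.9 at 20 m and 646 ± 64.7 at 28 m (SD, n = 3). The log2 fold change was -1.48 at 20 m (SE 0.157, limma adjusted p = 8.735e-05), a level 2.78-fold lower, and -1.09 at 28 m (SE 0.157, limma adjusted p = 0.0006885), 2.13-fold lower. Of the 8 members that passed the filter, Igf1 alone had a change of over 2-fold and an unadjusted p under 0.05, in both comparisons with 2 m, where 5.17% and 5.14% of all genes met that rule. Igf1 kept its call at 20 m and at 28 m in each of the 23 alternative analyses, with log2 fold changes of -1.64 to -1.25 and -1.25 to -1.005.

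Some fibroblast markers were lower at the same ages as Igf1. Of 7 such genes 4 were lower at 20 m and at 28 m and none was higher (7.13% and 6.24% of all genes were lower), and their summed level was 53134 to 108448 at 2 m, 22805 to 25772 at 20 m and 22887 to 31156 at 28 m, with none of them at 0 in all libraries of an age. The 2-m library with the lowest fibroblast sum, number 2, was also the lowest young library for Igf1, Igfbp3, Igfbp4, Igfbp5 and Igfbp6. It was the highest for Igf1r and Igfbp7. The fall of the sum lay mostly in the collagen genes. Col1a1 was at 11798 to 34207 at 2 m and 1711 to 2657 in aged muscle. Col1a2 was at 14853 to 40816 and 2763 to 4165, and Col3a1 at 10899 to 15596 and 1728 to 3237. Dpt was also lower, at 1812 to 2048 and 916 to 1315. Young and aged libraries overlapped for Dcn (11248 to 19989 and 12022 to 16890) and Lum (941 to 1698 and 717 to 1515.5). They also overlapped for Pdgfra, the defining receptor of these cells, chosen here after its values were seen (1306 to 1672 and 1278 to 1474). Of 6 adipocyte genes 4 were lower at 20 m and 2 at 28 m, and tendon genes were lower in 1 and 2 of 6. No endothelial gene of 7 passed in any comparison. The part of these markers in the changes of the IGF genes was not tested.

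Between the older ages, Igf1 was higher at 28 m than at 20 m in every library, by 0.39 on the log2 scale (95% interval 0.05 to 0.73), but this did not pass (limma adjusted p = 0.4092). Groups that do not overlap were common in this comparison, at 17.5% of all genes tested. With only the libraries numbered 1 and 2 the difference was 0.17, and without 20-m library 3 it was 0.24.

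Igf1r, which encodes the signalling receptor (chr7:67952257-68233668, plus strand), was measured at 1471, 1508 and 941 in 2-m muscle, 1521, 1632 and 1222 at 20 m, and 1412, 1324 and 959 at 28 m. The ages overlapped, and at each age the library numbered 3 was the lowest. It changed by 0.18 at 20 m on the log2 scale (95% interval -0.23 to 0.59, limma adjusted p = 0.5527) and -0.07 at 28 m (-0.48 to 0.33, limma adjusted p = 0.8373). Neither direction held when single libraries were left out. Without young library 3 the values were -0.04 at 20 m and -0.29 at 28 m (adjusted p = 0.8932 and 0.2698), and the value at 28 m was 0.10 without 28-m library 3 and 0.03 and 0.05 without young libraries 1 and 2. With a batch term for the libraries numbered 3 the log2 fold changes were the same and the adjusted p were 0.1439 and 0.5854. Its exons overlap those of an unnamed gene on the opposite strand, Gm51487, and the strand setting of the counting is not given in the sources used here.

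Igf2r, the lysosomal sorting receptor (chr17:12682406-12769706, minus strand), rose with age. Its normalized counts were 5227, 5161 and 4962 at 2 m, 6658, 6611 and 5855 at 20 m, and 7403, 5847 and 6791 at 28 m. The lowest aged library was above the highest young one. The log2 fold change was 0.31 at 20 m (SE 0.0914, limma adjusted p = 0.03378) and 0.38 at 28 m (SE 0.0914, limma adjusted p = 0.01631), levels 1.24-fold and 1.30-fold higher. After rescaling each library to the same sum the changes were 0.33 and 0.42 with adjusted p of 0.4465 and 0.3066, after quantile normalization the call at 20 m was lost (0.24, adjusted p = 0.0644), and with the libraries numbered 1 and 2 only they were 0.35 and 0.34 with adjusted p of 0.0809 and 0.1189. Leaving out either of 20-m libraries 1 and 2, or any 2-m library, also ended the call at 20 m (adjusted p of 0.0562 to 0.1319), and leaving out 28-m library 1 or 3 ended that at 28 m (0.0787 and 0.0587). Igf2r is an imprinted gene, and its span overlaps that of Airn, the antisense RNA that silences it on the paternal allele, without overlap of their annotated exons.

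Igfbp5, which encodes the binding protein with the highest transcript level per kilobase (chr1:72858065-72874865, minus strand), fell at 20 m. It was at 26209.6, 21089 and 36195 in 2-m muscle, 17061, 17036 and 15901 at 20 m, and 25696, 19899.7 and 24058 at 28 m. The 20-m libraries were the 3 lowest of all 9, and those of 28 m overlapped those of 2 m. The log2 fold change was -0.70 at 20 m (SE 0.158, limma adjusted p = 0.01016), 1.63-fold lower, and -0.23 at 28 m (95% interval -0.58 to 0.11, limma adjusted p = 0.3659). The young library numbered 3 carried much of this difference. Without it the change at 20 m was -0.50 with an adjusted p of 0.0209 and that at 28 m -0.03, whereas without young library 2 that at 28 m was -0.42 (adjusted p = 0.063) and without 28-m library 2 it was -0.13. The call at 20 m was lost after rescaling to the same sum (-0.69, adjusted p = 0.0709) and with the libraries numbered 1 and 2 only (-0.46, adjusted p = 0.0695).

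At 28 m against 20 m every library of Igfbp5 was higher, by 0.47 on the log2 scale (95% interval 0.13 to 0.81), which did not pass by limma (adjusted p = 0.3002). In an edgeR fit over all genes with a read, chosen after seeing the data, the adjusted p was 0.0494, and DESeq2 on the same reads gave 0.1077. The direct comparison of 28 m with 20 m therefore passed in 1 of its alternatives only.

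Igfbp6, whose product prefers IGF-2 over IGF-1 (chr15:102144186-102149512, plus strand), was lower at both older ages by about the same amount. It was at 2171, 1709 and 2147 at 2 m, at 1078, 1272 and 1049 at 20 m, and at 953, 1435 and 1100.3 at 28 m. No aged library reached the lowest young one. The level was 1.77-fold lower at 20 m (log2 fold change -0.82, SE 0.145, limma adjusted p = 0.002709) and 1.74-fold lower at 28 m (-0.80, SE 0.145, limma adjusted p = 0.003421). Between 28 m and 20 m the difference was 0.02 (95% interval -0.29 to 0.34). Of 23 alternatives per comparison, 1 ended a call, the libraries numbered 1 and 2 only at 28 m (-0.72, adjusted p = 0.0608).

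Igfbp7, a secreted protein of vessels and matrix (chr5:77349240-77408045, minus strand), was at 2565, 2908 and 2349 in young muscle, 2055, 2060.2 and 1673 at 20 m, and 2125, 2102 and 1906 at 28 m. The aged libraries were all below the young ones. Igfbp7 fell by 0.44 on the log2 scale at 20 m (SE 0.105, limma adjusted p = 0.01443), 1.35-fold lower, and by 0.35 at 28 m (SE 0.105, limma adjusted p = 0.0451), 1.27-fold lower. The call at 28 m was lost in 11 of 23 alternatives, with adjusted p of 0.0558 to 0.5697 and log2 fold changes of -0.38 to -0.27. The call at 20 m was lost in 2, after rescaling to the same sum (adjusted p = 0.2817) and without 20-m library 3 (-0.34, adjusted p = 0.0548). Its exons overlap those of Polr2b on the opposite strand.

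Igfbp3, which carries most IGF in the circulation (chr11:7206086-7215498, minus strand), was at 1192, 1064 and 1077 at 2 m, 878, 979 and 801 at 20 m, and 808, 1266 and 678 at 28 m. All 20-m libraries were below the young ones, whereas 28-m library 2 was the highest of all 9. Neither change passed, with log2 fold changes of -0.33 at 20 m (95% interval -0.72 to 0.06, limma adjusted p = 0.2325) and -0.33 at 28 m (-0.71 to 0.06, limma adjusted p = 0.2601). The change at 28 m depended on single libraries. Without 28-m library 2 it was -0.58 with an adjusted p of 0.0125, and without 28-m library 3 it was -0.13 with an adjusted p of 0.6812.

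Igfbp4, whose product keeps IGFs from the receptor until it is cut by the protease PAPP-A (chr11:99040005-99052655, plus strand), was at 2383, 1722 and 1922.5 at 2 m, 2204, 2057 and 1885 at 20 m, and 2321, 2490.05 and 2465 at 28 m. Young library 1 lay among the 28-m libraries and the other young libraries did not. The log2 fold change was 0.04 at 20 m (95% interval -0.20 to 0.28, limma adjusted p = 0.844) and 0.28 at 28 m (0.04 to 0.52, limma adjusted p = 0.1113). Without young library 1, the library with marrow and bone signal, it was 0.41 at 28 m with an adjusted p of 0.0241, and without young library 2 it was 0.18 with an adjusted p of 0.312. The value at 20 m lay between -0.07 and 0.17 over the omission of each library. Against 20 m, Igfbp4 at 28 m was higher in every library, as groups did not overlap for 17.5% of all genes tested. The difference of 0.25 on the log2 scale did not pass (limma adjusted p = 0.459).

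Igfbp2, which lies next to Igfbp5 on the opposite strand (chr1:72824480-72852474, plus strand), was near the limit of detection. Its normalized counts were 8.92, 7.05 and 3.61 at 2 m, 1.87, 1.69 and 3.81 at 20 m, and 20.9, 12.4 and 20.8 at 28 m, from 4, 4 and 5, then 1, 1 and 7, then 11, 9 and 11 reads. The 28-m libraries were the 3 highest. Against 2 m the log2 fold change was -1.10 at 20 m (95% interval -2.44 to 0.24) and 1.37 at 28 m (0.03 to 2.71), on the log2(normalized count + 1) scale. The latter was over 2-fold with an unadjusted p of 0.0452 in the limma fit across all genes without the filter, but did not pass (adjusted p = 0.2252; edgeR 0.3772; DESeq2 0.239). The difference between 28 m and 20 m was 2.48 on the log2(normalized count + 1) scale (95% interval 1.14 to 3.82), and did not pass over all genes (limma without the filter, adjusted p = 0.1758; edgeR 0.2704; DESeq2 0.1472).

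**Figure D2:**
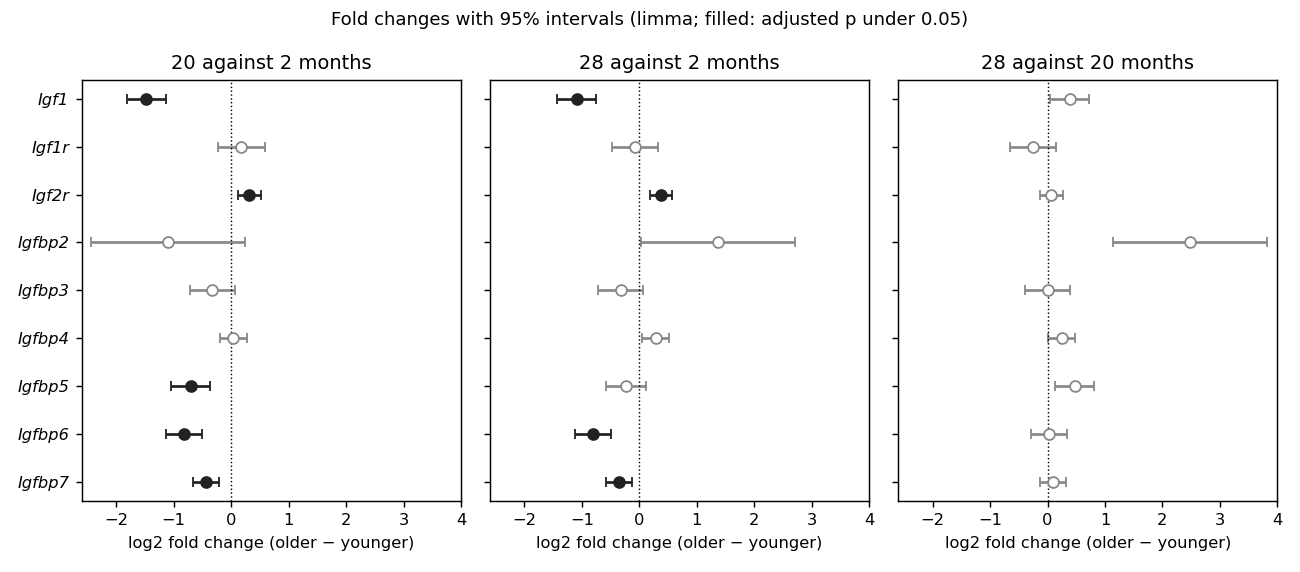
Log2 fold changes (x axis) of the 9 IGF genes (y axis) for 20 m against 2 m, 28 m against 2 m and 28 m against 20 m, with 95% intervals from limma. Filled points have an adjusted p under 0.05, and Igfbp2 is from the fit without the filter. Igf1 is farthest below 0 in both comparisons with 2 m (-1.48 and -1.09), and no point is filled at 28 m against 20 m.

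Over both older ages together, 5 of 8 members passed against 2 m, Igf2r higher and Igf1, Igfbp5, Igfbp6 and Igfbp7 lower, while 20.1% of all genes tested did so, 11.2% higher and 8.92% lower. Young and aged libraries did not overlap for 4 of the 8, and for 20.1% of all genes. The exact permutation p of Igf1, Igf2r, Igfbp6 and Igfbp7 was 0.0119 (two-sided, n = 3 against 6), the smallest this design allows, and 3 against 3 libraries cannot go below 0.1. That of Igfbp5 was 0.0833 by the exact test, since 28-m libraries overlapped the young ones. The limma log2 fold changes were -1.28 for Igf1, 0.35 for Igf2r, -0.47 for Igfbp5, -0.81 for Igfbp6 and -0.39 for Igfbp7. Igfbp5 lost this call in 8 of 22 alternatives, 6 of them the omission of 1 library.

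Between genes, levels were compared as normalized counts per kilobase of the longest transcript. In 2-m muscle the order was Igfbp5 at 4634 ± 1279 (SD, n = 3), Igfbp7 at 2173 ± 235, Igfbp6 at 1807 ± 234, Igf2r at 576 ± 15.5, Igfbp4 at 524 ± 88.5, Igfbp3 at 459 ± 29.1, Igf1 at 197 ± 36.0, Igf1r at 115 ± 27.8 and Igfbp2 at 4.99 ± 2.06. The ranges of Igf2r and Igfbp4, and of Igfbp4 and Igfbp3, overlapped, so these neighbours did not differ beyond their spread. At 20 m the ligand and its receptor stood in the other order, with Igf1 at 70.5 ± 11.9 and Igf1r at 128 ± 18.6 per kilobase and no overlap. At 28 m they were at 91.6 ± 9.17 and 108 ± 21.1, and overlapped. All other places were the same at the 3 ages.

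Igfbp5 made up 47.7% ± 6.99 of the summed level per kilobase of the 6 binding protein genes at 2 m, 44.1% ± 1.42 at 20 m and 50.5% ± 5.73 at 28 m. The sum itself was 8366 to 10864 at 2 m, 5811 to 6639.8 at 20 m and 7523 to 7862 at 28 m. Per 1000 units of this sum, Igf1 was at 20.4 ± 2.19 in young muscle, 11.1 ± 1.24 at 20 m and 11.99 ± 1.25 at 28 m. The ligand transcript was thus lower relative to the summed transcripts of these 6 genes too. The sum includes Igfbp7, whose product binds IGFs only weakly, and Igfbp6, whose product prefers IGF-2, at 23.1% and 18.8% in 2-m muscle. These values describe RNA, and no protein was measured.

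**Figure D3:**
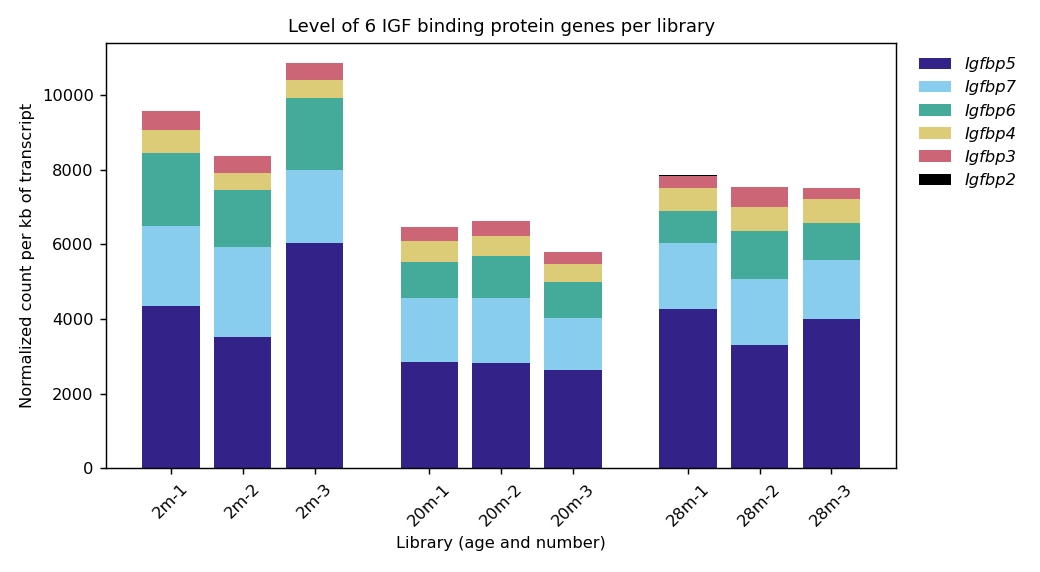
Stacked levels of 6 binding protein genes (normalized count per kilobase of the longest transcript, linear y axis from 0) in each of the 9 muscle libraries (x axis). The 3 libraries of 20 m have the lowest sums, 5811 to 6639.8, and Igfbp5 is the largest share in every library.

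For each called member, the genes most like it over the 9 libraries were listed by Pearson r of log2 values. Igf1 was closest to C1qtnf2 (r = 0.976), Adamts2 (0.975) and Serpinh1 (0.973). Igf2r was closest to Rfx7 (0.993), Akap11 (0.990) and Ik (0.979), and Igfbp7 to 1110038F14Rik (0.974), Irs1 (0.961) and Parl (0.960). Igfbp6 was closest to Ahsa1 (0.984), Metrn (0.976) and Dhrs7c (0.973), and Igfbp5 to Lgals3bp (0.978), Calm2 (0.977) and Pknox2 (0.949). These are the highest values among 13178 genes over libraries that share age groups and scaling, and they are given as a description.

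The other genes of the pathway were read from a list of 53, of which 52 passed the filter. At 20 m against 2 m, 11 were higher and 7 lower, at 28 m 7 and 10, and at 28 m against 20 m 0 passed by limma. In that comparison 10 of the 52 had an unadjusted p under 0.05, beside the 10.6% of all genes, and DESeq2 called 2, beside 1.77% (228 genes). Over both older ages 12 were higher and 12 lower, 24 of 52 beside the background of 20.1%. The median log2 fold change of the list was -0.003, against -0.02 over all genes. After rescaling to the same sum, 9 genes of the list were called at 20 m, 4 at 28 m and 11 over both older ages.

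**Figure D4:**
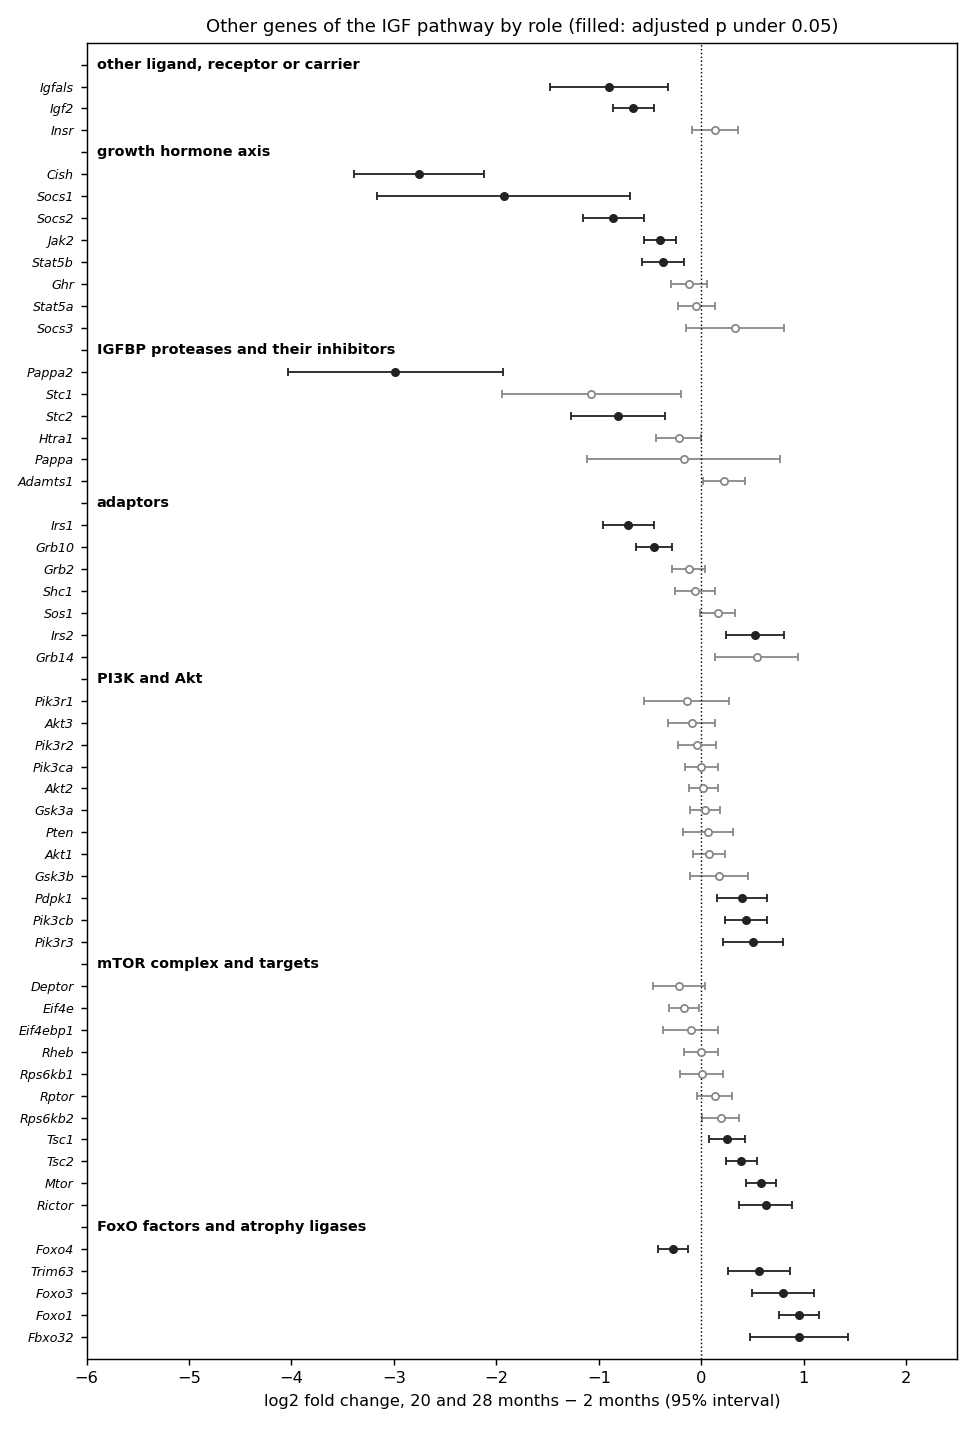
Log2 fold changes of 20 m and 28 m against 2 m (x axis, with 95% intervals) for the 52 pathway genes tested, grouped by role. Filled points have an adjusted p under 0.05. The called genes of the growth hormone axis and of the IGFBP proteases and their inhibitors lie below 0. Of the FoxO factors and atrophy ligases, 4 of 5 lie above it.

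Among the other ligands, receptors and carriers, Igf2, the fetal growth factor, fell from 1552 ± 245 at 2 m to 916 ± 48.7 at 20 m and 1030.03 ± 9.86 at 28 m (SD, n = 3; log2 fold changes -0.75 and -0.58, limma adjusted p = 0.0006878 and 0.003991). Igfals, the acid-labile subunit that stabilizes circulating IGF complexes, was at 156 ± 55.1, 86.4 ± 33.4 and 78.0 ± 15.7, and passed only over both older ages (-0.91, limma adjusted p = 0.03074). Insr, the insulin receptor, did not pass at any age, with 0.29 at 20 m and -0.02 at 28 m. Igfbp1, a liver binding protein, had 0 reads in all 9 libraries, which allows a level of up to 1.63 to 6.69 normalized counts per library at the limit of 3 reads.

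The counts by role below are over both older ages, where 8.92% of all genes tested were lower and 11.2% higher. Of the 8 genes of the growth hormone axis, 5 were lower and 0 higher. They were Cish, Socs1, Socs2, Jak2 (-0.40 on the log2 scale) and Stat5b (-0.37). The count thus holds feedback inhibitors and other genes of the axis alike. Cish, a feedback inhibitor induced by growth hormone through STAT5, was at 352, 405 and 558 in young muscle, 59.8, 38.8 and 55.0 at 20 m, and 45.5, 134 and 79.3 at 28 m. The highest aged library was well under the lowest young one. Cish was 8.40-fold lower at 20 m and 5.42-fold lower at 28 m (limma adjusted p = 0.0001061 and 0.0005316). Socs2, which restrains growth hormone signalling, fell by 0.80 and 0.92 on the log2 scale (adjusted p = 0.005106 and 0.002398). Socs1, at 24.6 ± 7.82 in young muscle, was at 4.20 ± 0.744 at 20 m (limma adjusted p = 0.03498) and 7.64 ± 3.35 at 28 m (0.1312). Its level rested on 7, 17 and 39 reads at 2 m, 2, 3 and 7 at 20 m and 5, 7 and 2 at 28 m, so that 3 of the 6 aged libraries were at or under the limit of 3 reads.

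Of 6 proteases of the binding proteins and their inhibitors, 2 were lower and 0 higher over both older ages, where 8.92% of all genes were lower. Pappa2, which cuts IGFBP3 and IGFBP5, was at 89.2, 51.1 and 107 in young muscle, 3.74, 1.69 and 8.72 at 20 m, and 22.8, 23.5 and 13.2 at 28 m. All aged libraries were lower than all young ones, and those of 20 m rested on 2, 1 and 16 reads. The log2 fold change at 28 m was -1.98 (limma adjusted p = 0.03427). Stc2, a secreted inhibitor of these proteases, was 2.00-fold lower at 28 m (limma adjusted p = 0.0182) and did not pass at 20 m.

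Of 7 adaptors, Irs1 fell by 0.79 and 0.63 on the log2 scale at 20 m and 28 m (limma adjusted p = 0.001781 and 0.007502), with 6659 to 7348 normalized counts in young libraries and 3290 to 5051 in aged ones. Irs2 moved the other way at 20 m, from 701 ± 59.8 to 1241 ± 312 (0.80, limma adjusted p = 0.004114), and was at 837 ± 85.8 at 28 m (adjusted p = 0.304). Both encode substrates through which the IGF-1 and insulin receptors signal. Of the 5 other adaptors, 1 was lower and 0 higher over both older ages.

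Downstream, 3 of 12 PI3K and Akt genes and 4 of 11 mTOR genes were higher over both older ages and none was lower, beside the 11.2% and 8.92% of all genes. Mtor, the kinase itself, rose by 0.63 at 20 m and 0.53 at 28 m on the log2 scale (limma adjusted p = 0.0002393 and 0.000843). Rictor, a subunit of its second complex, rose by 0.71 and 0.55 (adjusted p = 0.004614 and 0.01964). The other mTOR genes called over both older ages were Tsc2, higher by 0.39, and Tsc1, higher by 0.25 (limma adjusted p = 0.002027 and 0.04723). These counts do not tell activators of the pathway from its inhibitors. Of 5 FoxO factors and atrophy ligases 4 were higher and 1 lower. Foxo1 was at 1174 ± 71.1 in young muscle, 2577 ± 319 at 20 m and 2012 ± 194 at 28 m, 2.19-fold and 1.71-fold higher (limma adjusted p = 3.926e-05 and 0.0004848). Foxo3 rose by 0.95 and 0.65 on the log2 scale (adjusted p = 0.002001 and 0.01835). The ubiquitin ligase genes Fbxo32 and Trim63, FoxO targets in wasting muscle, were 2.33-fold and 1.73-fold higher at 20 m (adjusted p = 0.006736 and 0.006012) and did not pass at 28 m (0.09383 and 0.1995).

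MBD-seq gave a separate readout of the same genes, as the mean normalized count of the 500-bp bins from 1000 bp before to 500 bp after the start site. A high count means that many captured, and so methylated, fragments overlapped the bins. Each value is 1 pool, so no test between ages was possible. In muscle at 2 m, Igf2r was the highest member at 39.1 and Igf1r was at 0, and both windows printed above are rich in CpGs. Igfbp7 was at 23.9, Igfbp6 at 20.7, Igfbp2 at 15.0, Igf1 at 10.01, Igfbp4 at 6.37, Igfbp3 at 1.59 and Igfbp5 at 1.14, with a median of 7.51 over 16375 genes.

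Across ages, Igf1 was at 10.01, 7.16 and 11.3 in 2-m, 20-m and 28-m muscle, from 44, 34 and 71 reads, beside medians over all genes of 7.51, 7.58 and 10.04. Igfbp6 was at 20.7, 24.4 and 21.0, and Igfbp7 at 23.9, 22.9 and 18.5. Igf2r was at 39.1 (172 reads, exact Poisson 95% interval 33.5 to 45.4), 21.3 (101 reads, 17.3 to 25.8) and 26.9 (169 reads, 23.0 to 31.3), intervals that cover counting error only. In T cells the same window of Igf2r was at 48.7, 67.8 and 75.01. These differences depended on the scaling of the libraries and on the window. After rescaling each MBD-seq library to the same sum, Igf2r was at 54.0, 31.7 and 50.6 in muscle, and its log2 ratio of 28 m to 2 m (with 1 added to each level) went from -0.52 to -0.09. Within 500 bp of the start the deposited levels were 47.6, 26.1 and 24.4, so that which of the older pools was the lowest differed between the windows, and the 2-m pool was the highest in both. The rescaled values in T cells were 41.6, 47.3 and 51.1. Methylation at this start site on the silent paternal allele is a known feature of the imprinted gene.

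Downstream of the start of Igfbp6, the 3 bins centred 1064, 1564 and 2064 bp from it were at 66.4, 65.5 and 75.5 in 2-m muscle, 54.7, 24.4 and 24.4 at 20 m, and 26.8, 19.1 and 29.3 at 28 m. The 28-m pool was lower than the 2-m pool in each of them. In T cells these bins were at 81.2, 42.6 and 54.8 at 2 m and at 189, 123 and 111 at 28 m, higher in each. After rescaling to the same sum the 28-m pool of muscle was still lower in each bin, at 50.3, 35.9 and 55.1 against 91.7, 90.5 and 104, and that of T cells higher. The bins were chosen after their values were seen. Over whole gene bodies Igfbp6 was at 34.6, 26.4 and 19.2 in muscle at the 3 ages, while the median of all genes went from 21.9 to 20.3 and 18.6. The start site of Igfbp3 was at 1.59, 0 and 2.07 in muscle and at 3.55, 14.9 and 40.0 in T cells, where no RNA was measured.

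**Figure D5:**
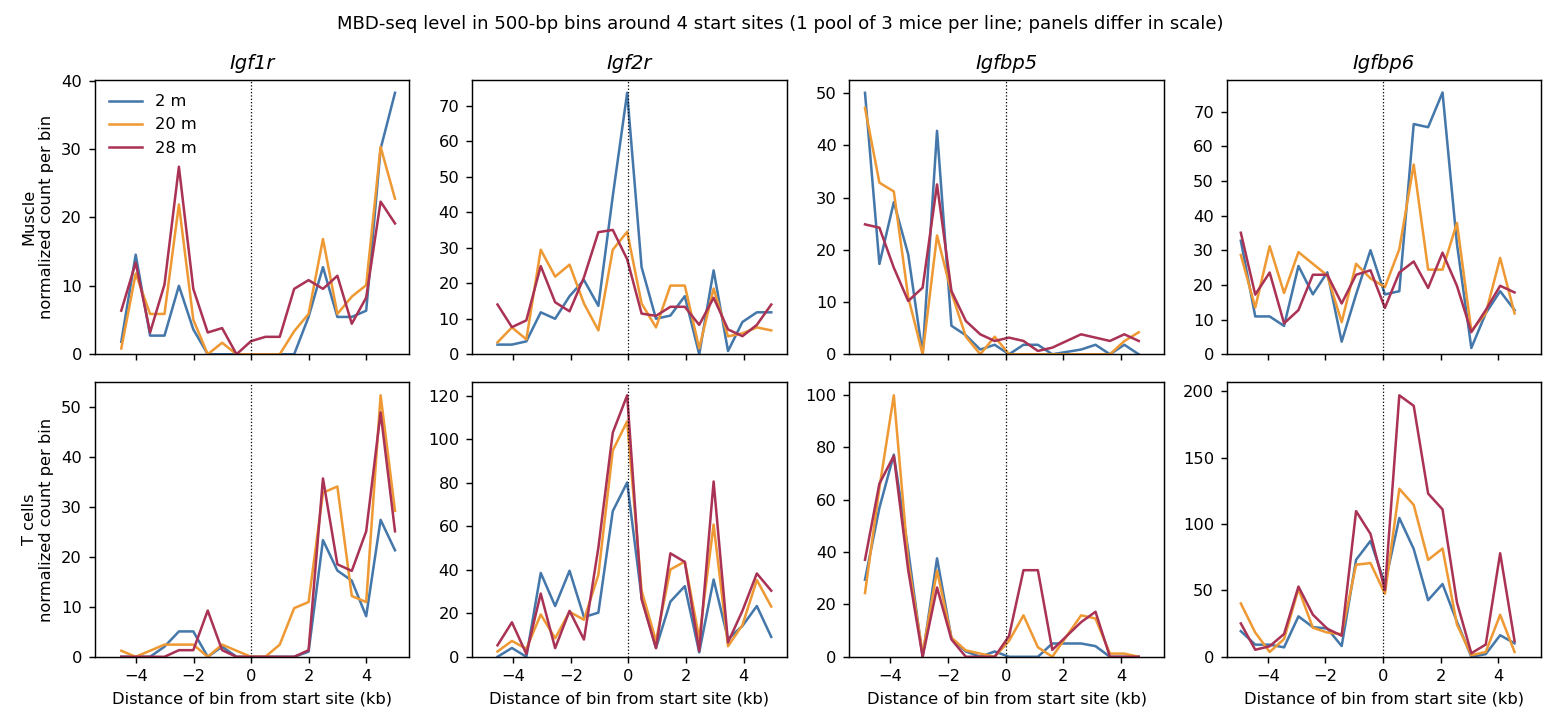
MBD-seq level (normalized count per 500-bp bin, y axes from 0 and different per panel) against the distance from the start site in kilobases for Igf1r, Igf2r, Igfbp5 and Igfbp6, in muscle (top) and T cells (bottom), with 1 line per age. At the Igf2r start the 2-m pool stands highest of the muscle pools at 73.7, under the T cell pools at 80.2 to 120.3, and the bins around the Igf1r start are at or near 0.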

How the data were processed

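RNA-seq libraries were made from the hindlimb muscle of 3 female mice per age without pooling, and MBD-seq libraries from pooled DNA. The deposited signal values of both tables are reads per refSeq gene or per 500-bp bin divided by 1 DESeq2 size factor per library, by the authors. For this, the authors trimmed reads with Trim Galore, aligned them to mm10 with Hisat2 (RNA; the submitters' processing notes list TopHat) or Bowtie2 (DNA), and counted them with htseq-count or bedtools. The strand setting of the counting is not given in the sources used here. All nonzero RNA-seq values (100%, tolerance 0.01 read) were multiples of a single step for each library, so the reads were recovered. The 5 rows that name no gene took 37.9 to 47.7% of each library and were left out.

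Log2 of the normalized count plus 1 was modelled over all 9 libraries by limma-trend (limma 3.58.1, R 4.3.3), with age as the only term, for the 13178 genes with a mean of at least 10, with Benjamini-Hochberg adjustment over genes. A gene was called at an adjusted p under 0.05. Exact permutation tests were two-sided. Whole-read alternatives used edgeR 4.0.16 (quasi-likelihood) and DESeq2 1.42.0. Counts were simulated for these libraries with 200 changed genes among 13178. In the comparison of both older ages with 2 m, the only one simulated, limma recovered 190 with the right sign and called 7 unchanged genes. In the data 2649 genes were called there, many more than were changed in the simulation, so its counts do not give the error rate of these calls. Further alternatives were pseudocounts of 0.1 and 5, quantile normalization, equal library sums, a filter at a mean of 50 and none, a replicate block, a batch term for the libraries numbered 3, fewer libraries, and the omission of each library. MBD-seq windows of 500 and 2000 bp around the start site and equal MBD-seq library sums were also tried.

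The members, the pathway list and the marker lists (muscle fibre, slow fibre, fibroblast, tendon, endothelial, mural, macrophage, adipocyte, Schwann, satellite, red blood, marrow, bone and cartilage, B and plasma cells) were chosen with earlier results of these data known. By rule, all members are named, Igf2, Insr, Igfbp1 and Igfals always, and the 15 pathway genes with the largest change among those called. The fibroblast markers named, Jak2, Stat5b, Tsc1, Tsc2 and Airn fall outside it. Some marker lists have no counts above. Over both older ages, 0 mural, 0 macrophage, 0 red blood and 0 B and plasma cell genes passed. In that comparison 2 of 5 Schwann, 1 of 3 satellite, 1 of 6 marrow and 1 of 4 bone and cartilage genes were lower. Of 10 muscle fibre genes, 2 were lower and 1 higher. At 20 m against 2 m, 2 of 7 macrophage and 1 of 6 mural genes were lower, and at 28 m 0 of either list passed. Positions and start-site sequences are from RefSeq (GRCm38.p6, with all 9 members matched) and transcript lengths from GENCODE vM21. The muscle MBD-seq columns name the age but not the round of capture. Nothing says which libraries shared a cage or day.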

Additional observations from a re-analysis of the deposited data

How the results depend on the processing

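Of the 736 alternative log2 fold changes of the members, 692 stayed on the same side of the threshold, 39 lost a call, 5 gained one, and 0 called values changed sign. For 20 m against 2 m, 28 m against 2 m and both older ages against 2 m, the members called numbered 5, 4 and 5. After rescaling to the same sum they numbered 2, 2 and 2, and with the libraries numbered 1 and 2 only 3, 1 and 3. Over the omission of each library they ranged from 4 to 5, 2 to 4 and 4 to 5. Genes called over the table numbered 2181, 1814 and 2649. Rescaling gave 586, 554 and 796, libraries 1 and 2 only 1099, 712 and 1327, and omission of each library 1081 to 2231, 963 to 1846 and 1646 to 2850. Pathway genes called numbered 18, 17 and 24. Rescaling gave 9, 4 and 11, and omission of each library 13 to 18, 11 to 18 and 19 to 25. Without young library 1 the genes called were 1402, 1107 and 1646, without 20-m libraries 1 and 2 in turn 1081 and 1264 at 20 m, and without 28-m libraries 1 and 3 in turn 963 and 1077 at 28 m, where members (2) and pathway genes (11) were also lowest. For 28 m against 20 m, 50 genes were called, 24 after rescaling, 138 with the replicate block, 103 with the batch term, 11 with libraries 1 and 2 only, 76 with only the groups compared, 228 by DESeq2, and 14 to 88 over omissions (without 20-m library 1 and young library 2, with 18 without 20-m library 3 and 25, 28 and 23 without 28-m libraries 1, 2 and 3). Pathway genes called there were 0, but 3 with the block, 1 with only the groups compared and 2 by DESeq2. The cause of these differences was not tested, except that omissions and subsets test fewer samples.

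Same-numbered libraries had correlations of deviations from -0.04 to 0.161. The 3 pairs numbered 3, the libraries that also stood apart in unaligned reads, were at 0.109, 0.150 and 0.161, and no pair numbered 1 or 2 was above 0.1, so the numbers as a whole were not taken as pairs. The replicate block changed no call of a member. At the start sites, 7 of 27 alternative MBD-seq values moved by more than counting error. With equal library sums the log2 ratio of 28 m to 2 m for Igfbp7 went from -0.35 to 0.07 and that for Igfbp6 from 0.02 to 0.45. Within 2000 bp of the start, the levels at 2 m and 28 m were instead 49.8 and 24.1 for Igfbp7, 35.3 and 21.9 for Igfbp6, and 5.66 and 10.5 for Igf1. Depth limits Igfbp2, Pappa2 and Socs1, which rest on few reads, and 1 pool per age limits all MBD-seq values.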
